A study of Homo sapiens with 6 samples.

Results

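The antiviral members of the poly(ADP-ribose) polymerase (PARP) family, with their partner DTX3L, were followed across the 6 libraries of a GOMAFU knockdown in BE(2)-M17, an established cell line from a human neuroblastoma. The 8 genes were taken by symbol from the deposited table of 26372 genes, and all 8 were present. There were 6 antiviral genes (PARP9, DTX3L, PARP10, PARP12, PARP14 and ZC3HAV1) and 2 DNA repair paralogues, PARP1 and PARP2, kept for contrast. The control group comprised 3 libraries of M17 cells labelled control, and the knockdown group 3 libraries of M17 cells labelled GOMAFU knockdown. Both groups carried the replicate numbers 2, 3 and 4. The sources used here give neither what the control cells received nor the sequence used for the knockdown. A general protocol in the labels has cells transfected with 100 pmol of small RNA by a lipid reagent. No separate cultures are named, so the p-values here reflect variation among these libraries only, and that variation may be technical. The study concerned GOMAFU, a nuclear long non-coding RNA listed as MIAT, and the microRNA miR-137 in neuronal differentiation.

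PARP enzymes transfer ADP-ribose from NAD onto proteins or nucleic acids. PARP1 and PARP2 bind broken DNA and build chains of ADP-ribose that recruit repair proteins. PARP10, PARP12 and PARP14 add single ADP-ribose units, and each is known as an interferon-induced gene with antiviral activity. PARP9 forms a complex with DTX3L, a ubiquitin ligase of the Deltex family. ZC3HAV1 encodes ZAP, also called PARP13, a zinc finger protein that binds CpG-rich viral RNA and whose PARP domain lacks catalytic activity. Interferons signal through JAK kinases to ISGF3, a complex with STAT2 and IRF9 that binds interferon-stimulated response elements (ISRE), while gamma-activated sites (GAS) are the elements known from the response to interferon gamma.

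The sequences before the starts of these genes were searched for the letters GAAANNGAAA on both strands (ISRE-like) and TTCNNNGAA (GAS-like, which reads the same on both strands). RefSeq windows of 300 bases (250 before each gene start and 50 from it, GRCh38.p14) matched 7 of the 8 symbols, PARP10 being the other. An ISRE-like match was present for 4 antiviral genes, PARP9, DTX3L, PARP12 and PARP14, and in neither repair paralogue. Of all 35116 windows 3.57% held such a match. A GAS-like match was found for PARP14, ZC3HAV1 and PARP2, and in 7.66% of all windows. The stretches that carry the matches are shown so that the shared letters before PARP9 and DTX3L, and those of the other genes, can be read beside the levels given further on. Capitals mark the matches.
DTX3L, chr3:122564301-122564341, plus strand: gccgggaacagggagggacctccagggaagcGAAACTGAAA
PARP14, chr3:122680759-122680838, plus strand: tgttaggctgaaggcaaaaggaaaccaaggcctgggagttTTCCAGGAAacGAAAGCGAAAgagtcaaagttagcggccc
PARP12, chr7:140062952-140063031, minus strand: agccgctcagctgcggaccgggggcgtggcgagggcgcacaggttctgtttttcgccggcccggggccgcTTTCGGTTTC
ZC3HAV1, chr7:139109791-139109850, minus strand: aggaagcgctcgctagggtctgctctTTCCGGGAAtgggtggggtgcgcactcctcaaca
PARP2, chr14:20343455-20343514, plus strand: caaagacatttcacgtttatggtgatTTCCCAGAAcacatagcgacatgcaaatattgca

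PARP9 and DTX3L share their match. A RefSeq start of PARP9 on the minus strand and the start of DTX3L on the plus strand have 37 bases between them. The ISRE-like letters at chr3:122564332-122564341 belong to both windows. The match begins 41 bases before that PARP9 start and 6 bases before the DTX3L start. In PARP14 the ISRE-like match begins 29 bases before the start and a GAS-like match 40 bases before it. In PARP12 the ISRE-like match ends at the base before the RefSeq start. In another annotation, GENCODE release 29, the genes PARP9, DTX3L, PARP12 and PARP14 begin further upstream. By that annotation their ISRE-like matches lie inside the genes. The capitals of ZC3HAV1 and PARP2 are GAS-like letters, so that match was present both in a gene that was high in knockdown replicate 4 and in a gene that was not. A match is a description of letters and not a measured binding site.

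The libraries were first compared as wholes. FPKM is the number of sequenced fragments scaled to gene length and library size, and the 12164 genes whose mean reached 1 FPKM were tested. On the log2(FPKM + 1) scale the correlation of knockdown replicate 4 with each other library was r = 0.94 to 0.956, while the remaining libraries correlated at 0.983 to 0.997. Relative depth, read from the commonest ratio of low values, was 0.97 to 1.1 times that of control replicate 3 in the other controls. It was 1.08, 1.36 and 1.06 times in knockdown replicates 2, 3 and 4. MIAT, the targeted transcript, had 5.38, 5.96 and 8.57 FPKM in the controls, against 1.27, 1.32 and 3.21 FPKM after knockdown (replicates 2, 3 and 4). Every knockdown library was below every control, as for 4.35% of tested genes (log2 difference -1.42, SE 0.27, adjusted p = 0.9998 by limma). Of 14 adrenergic neuroblastoma markers 12 had a mean of at least 1 FPKM, while TH, the rate-limiting enzyme of catecholamine synthesis, did not exceed 0.0872 FPKM in any library.

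PARP9 is the ADP-ribosyltransferase-family subunit of the complex with DTX3L. Its level was 1.17, 1.20 and 0.448 FPKM in control replicates 2, 3 and 4, and 4.42, 1.24 and 32.4 FPKM in knockdown replicates 2, 3 and 4. All knockdown values lay above all controls, but knockdown replicate 3 exceeded the highest control only narrowly. The means were 0.938 ± 0.424 and 12.7 ± 17.1 FPKM (SD, n = 3 each), with a log2 difference of 1.96 (SE 0.89, adjusted p = 0.9998 by limma).

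DTX3L, the ubiquitin ligase of that complex, was measured at 1.29, 1.36 and 1.05 FPKM without knockdown and 6.74, 1.58 and 76.7 FPKM with it, in replicate order. The groups did not overlap, and knockdown replicate 4 was 11.4 times knockdown replicate 2. The means were 1.23 ± 0.161 and 28.3 ± 42.0 FPKM (SD, n = 3 each), with a log2 difference of 2.38 (SE 1.10, adjusted p = 0.9998 by limma). The PARP9 level was 0.907, 0.882 and 0.427 of the DTX3L level in the controls. It was 0.656, 0.784 and 0.422 of it in the knockdown libraries, so this ratio in knockdown replicate 4 was close to that in control replicate 4. The annotated 5′ ends of PARP9 and DTX3L overlap on opposite strands, and whether strand entered the counting is not given in the sources used here, so reads from the overlap cannot be told apart.

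PARP14, the largest of the macrodomain-bearing PARP enzymes, had the widest range. It was at 0.469, 0.522 and 0.392 FPKM in control libraries, against 4.49, 0.819 and 89.8 FPKM in the knockdown libraries. These values were 9.73, 1.78 and 195 times the control mean, and the groups did not overlap. The log2 difference was 2.73 (SE 1.28, adjusted p = 0.9998 by limma).

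PARP10, a mono-ADP-ribosyltransferase, was at 0.294, 0.284 and 0.525 FPKM in control libraries, against 1.32, 0.390 and 52.3 FPKM in the knockdown libraries. Knockdown replicate 3 fell within the controls, so the groups overlapped, and knockdown replicate 4 was 39.6 times knockdown replicate 2. The log2 difference was 2.03 (SE 1.25, adjusted p = 0.9998 by limma). The PARP10 gene overlaps GRINA, which encodes a membrane protein linked to glutamate receptors, on the opposite strand. GRINA was at 77.9 to 81.3 FPKM in the controls, at 80.7 and 80.3 FPKM in knockdown replicates 2 and 3, and at 169 FPKM in knockdown replicate 4. The part of either gene's reads in the other's value was not tested.

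PARP12, a zinc finger mono-ADP-ribosyltransferase, was at 1.91, 1.59 and 2.17 FPKM in control libraries, against 3.55, 1.76 and 35.0 FPKM in the knockdown libraries. Here too knockdown replicate 3 lay among the controls. The log2 difference was 1.42 (SE 0.87, adjusted p = 0.9998 by limma).

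ZC3HAV1, which encodes ZAP, was at 9.40, 9.72 and 9.30 FPKM in control libraries, against 14.3, 9.81 and 31.6 FPKM in the knockdown libraries. The groups did not overlap, yet knockdown replicate 3 was 1.03 times the control mean. ZC3HAV1 had the highest control level of the 6 antiviral genes and the smallest difference (log2 0.74, SE 0.36, adjusted p = 0.9998 by limma). A gene-level value does not separate the long and short ZAP isoforms.

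The repair paralogues did not follow the antiviral genes. PARP1 was at 179, 189 and 187 FPKM in control libraries, against 192, 182 and 150 FPKM in the knockdown libraries, so knockdown replicate 4 was its lowest library. PARP2 was at 45.6, 43.6 and 36.2 FPKM in control libraries, against 45.9, 47.6 and 39.2 FPKM in the knockdown libraries, and its groups overlapped. Their log2 differences were -0.09 (SE 0.10) and 0.08 (SE 0.12), each with adjusted p = 0.9998 by limma.

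**Figure D1:**
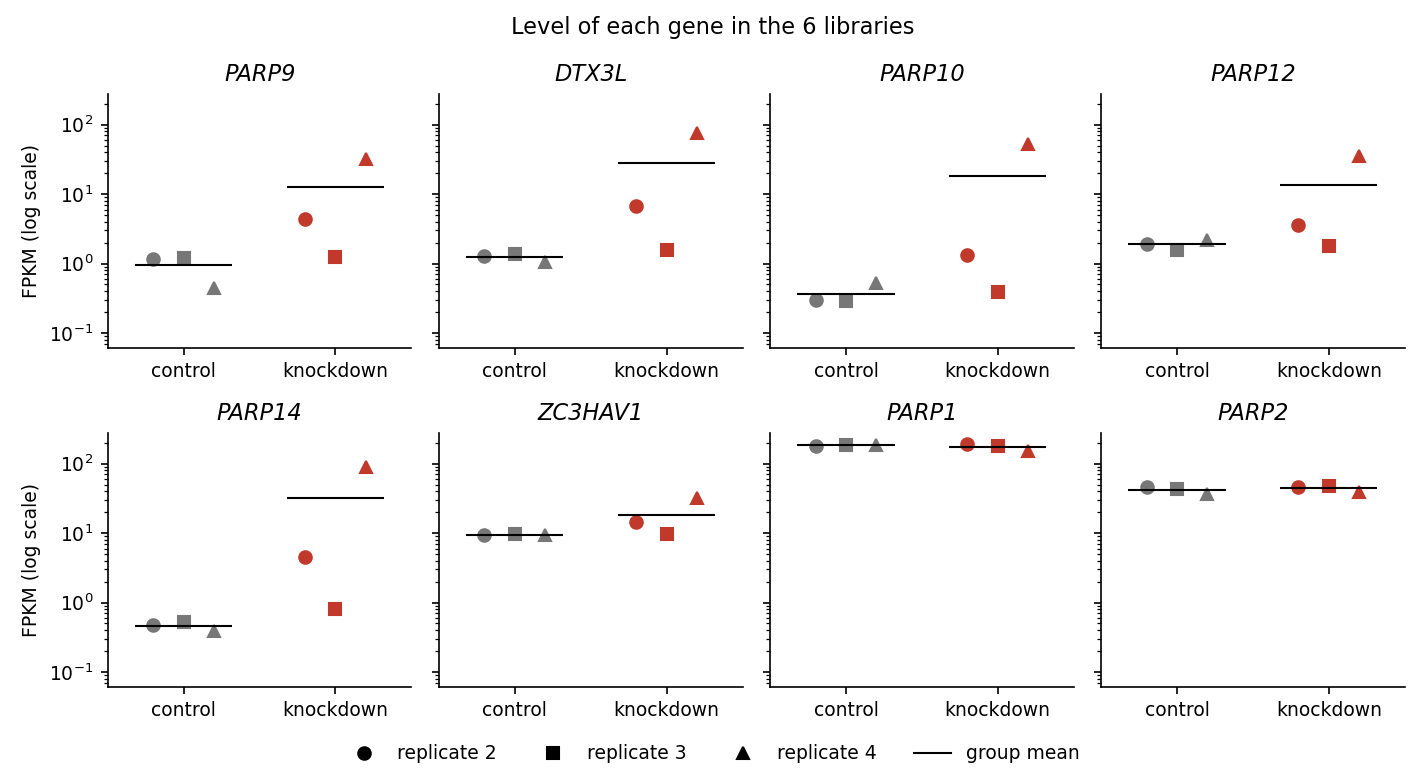
FPKM on a log axis of the 8 genes in the 3 control and 3 knockdown libraries, with the replicate number as the symbol and the group mean as a line. For the 6 antiviral genes knockdown replicate 4 is the highest library, up to 89.8 FPKM for PARP14, while PARP1 and PARP2 stay between 36.2 and 192 FPKM.

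As a group comparison, 0 of the 6 antiviral genes and 0 of the 2 repair paralogues passed an adjusted p of 0.05 in limma. Among all 12164 genes 0% passed, whether higher or lower, and at an unadjusted p under 0.05 there were 118 higher genes and 145 lower ones. The unadjusted p of the antiviral genes ran from 0.0637 for PARP9 to 0.15 for PARP10. The groups did not overlap for 4 of the 6 (PARP9, DTX3L, PARP14 and ZC3HAV1, each higher after knockdown), against 4.01% of all tested genes in that direction. An exact two-sided permutation test gave p = 0.1 for each of these 4, the smallest value that 3 against 3 allows, p = 0.2 for PARP10 and p = 0.3 for PARP12. The median log2 difference was 1.99 for the antiviral genes and -0.01 for all tested genes. Without knockdown replicate 4 it was 0.87 over the 5 antiviral genes still tested, with log2 differences of 0.87 for PARP9, 1.00 for DTX3L, 1.11 for PARP14, 0.30 for PARP12 and 0.29 for ZC3HAV1 (adjusted p = 0.959 by limma for each). PARP10 had a mean of at least 1 FPKM only through knockdown replicate 4. For PARP9, PARP10 and PARP14 the control mean was below 1 FPKM, so their place among the tested genes rested on the knockdown libraries.

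Each knockdown library was then set against the 3 controls by itself. In this limma fit the spread came from the controls and the lone library was assumed to vary like them, so the test concerns that library and not the condition. In knockdown replicate 4 all 6 antiviral genes rose past an adjusted p of 0.05, where 2.21% of all tested genes did. The differences on the log2(FPKM + 1) scale were 5.96 for PARP14 (SE 0.13), 5.29 for PARP10 (SE 0.17), 5.12 for DTX3L (SE 0.14), 4.13 for PARP9 (SE 0.28), 3.64 for PARP12 (SE 0.16) and 1.64 for ZC3HAV1 (SE 0.10). Their adjusted p ran from 4.95e-05 for PARP14 to 0.00218 for PARP9. PARP9, PARP10 and PARP14 had control means of 0.938, 0.368 and 0.461 FPKM. They were tested only through their knockdown values, so the filter favoured their calls. All 6 antiviral genes were above every control in that library, as were 30.7% of tested genes. PARP14 ranked 29 and ZC3HAV1 ranked 165 among the 12164 differences in that library.

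In knockdown replicate 2 the same fit called DTX3L (log2 1.80, SE 0.14, adjusted p = 0.0223) and PARP14 (log2 1.91, SE 0.13, adjusted p = 0.0152), 2 of 6 where 0.263% of all tested genes were called higher. Both calls ended when no filter on low values was used, at adjusted p = 0.102 and 0.0635 over 18663 genes. PARP9 differed by 1.51 (SE 0.28, adjusted p = 0.571) and passed without control replicate 4, its lowest control (log2 1.31, adjusted p = 0.00446). PARP10 differed by 0.77, PARP12 by 0.66 and ZC3HAV1 by 0.54 in that library, with adjusted p from 0.571 to 0.998. The filter favoured the call of PARP14 in this library too, as its control mean was below 1 FPKM. All 6 antiviral genes were above every control there, as were 23.1% of all tested genes.

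Knockdown replicate 3 gave 0 of 6 calls by limma, where 0.0164% of all tested genes were called higher. Its largest difference was 0.32 for PARP14 (SE 0.13), and PARP12 stood at -0.06 (SE 0.16), with adjusted p = 1 for each of the 8 genes. In that library 4 of the 6 antiviral genes lay above every control, against 22.7% of all tested genes. In knockdown replicates 2 and 3, 0 of the 8 genes lay below every control, against 25.9% and 21.2% of tested genes. The MIAT level of knockdown replicate 3 was 0.199 times the control mean, close to 0.192 times in knockdown replicate 2, while knockdown replicate 4 kept 0.484 times. The library with the highest antiviral PARP levels was thus the one with the most MIAT left among the 3. The part of the remaining MIAT in this order was not tested.

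PARP1 and PARP2 gave 0 calls in knockdown replicates 2 and 3, and 0 in knockdown replicate 4, where 0.28% of all tested genes were called lower. PARP1 was below every control in knockdown replicate 4, as were 35.9% of tested genes. There the PARP1 difference was -0.30 (SE 0.09, adjusted p = 0.214) and that of PARP2 was -0.08 (SE 0.15, adjusted p = 0.787). Without control replicate 4 the PARP1 difference was -0.29 and passed (adjusted p = 0.0215), in a fit that called 3752 genes in place of 303.

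**Figure D2:**
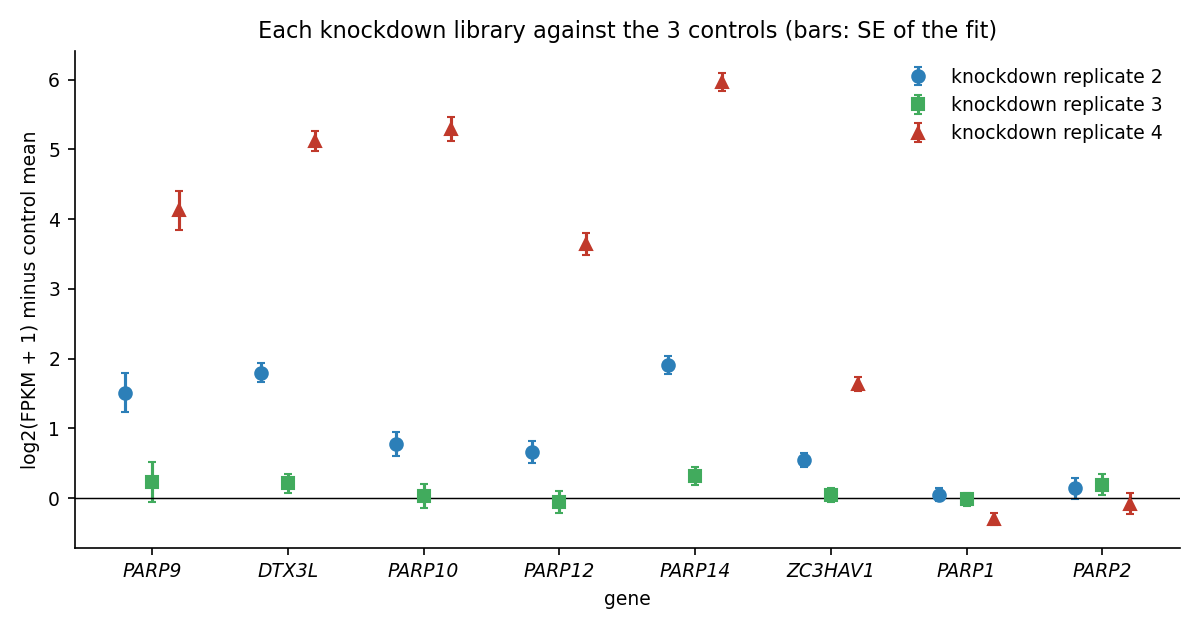
Difference of each knockdown library from the control mean on the log2(FPKM + 1) scale for the 8 genes, with the SE of the fit as bars. The antiviral genes reach 1.64 to 5.96 in knockdown replicate 4 and 0.54 to 1.91 in replicate 2, whereas replicate 3 lies between -0.06 and 0.32.

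**Figure D3:**
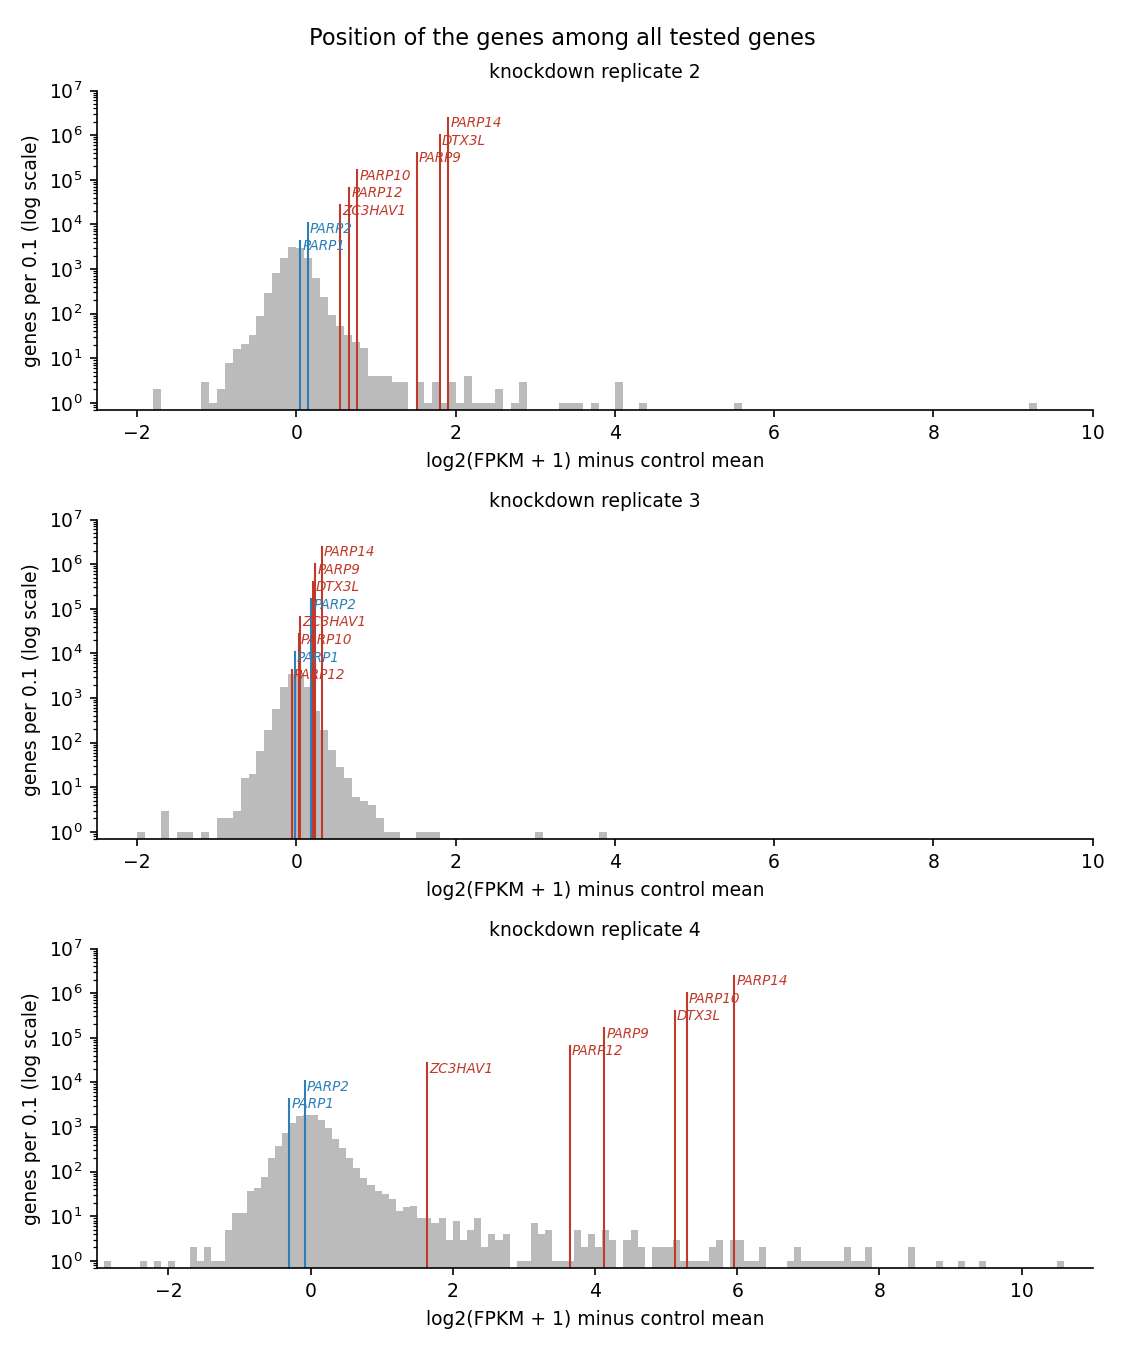
Distribution of the same differences over all 12164 tested genes in each knockdown library, as genes per 0.1 on a log axis, with the antiviral genes as red lines and the repair paralogues as blue lines (line heights carry no value). In knockdown replicate 4 the antiviral genes lie in the right tail, at ranks 29 to 165, and PARP1 and PARP2 lie within the bulk.

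The order of the levels changed between libraries. In the controls PARP1 was highest, followed by PARP2, ZC3HAV1, PARP12, DTX3L, PARP9, PARP14 and PARP10 by their means in FPKM, a unit per gene length. The control ranges of DTX3L and PARP9 overlapped, as did those of PARP9, PARP14 and PARP10 with each other. Within each control library DTX3L was above PARP9 and PARP9 above PARP14. PARP10 was below PARP14 in control replicates 2 and 3, but above both PARP9 and PARP14 in control replicate 4. In knockdown replicate 4 the order was PARP1 (150 FPKM), PARP14 (89.8), DTX3L (76.7), PARP10 (52.3), PARP2 (39.2), PARP12 (35.0), PARP9 (32.4) and ZC3HAV1 (31.6). PARP14 thus stood above PARP2 and below PARP1 in that library.

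The same shift can be read as a share of the PARP family. The summed FPKM of 17 family genes was 355 to 364 in the controls and 384, 356 and 565 in knockdown replicates 2, 3 and 4. The 5 antiviral PARP genes (without DTX3L, which is no PARP) held 3.73%, 3.67% and 3.53% of that sum in the controls. They held 7.3%, 3.94% and 42.7% in the knockdown libraries. The share of PARP1 was 50.4% to 52.3% in the controls and 49.9%, 51.2% and 26.6% in the knockdown libraries. In knockdown replicate 4 PARP14 alone held 15.9%.

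The 10 other PARP family genes were taken as a comparison. By limma 0 of the 8 tested passed in the group comparison, with a median log2 difference of 0.06, and 1 of the 8 was called higher in knockdown replicate 4, where 2.21% of all tested genes were. That gene was PARP8, a mono-ADP-ribosyltransferase, at 3.57 to 3.76 FPKM in control libraries and 3.55, 2.92 and 7.22 FPKM in the knockdown libraries (adjusted p = 0.0413 in replicate 4). PARP4, the PARP of vault particles, was at 10.3 to 11.1 FPKM in control libraries and 16.1 FPKM in knockdown replicate 4 (adjusted p = 0.0929). The tankyrases TNKS and TNKS2, which act on telomere and Wnt pathway proteins, differed by 0.03 and 0.10 on the log2 scale. PARP3 differed by -0.14, PARP6 by -0.07, TIPARP by 0.17 and PARP16 by -0.04. PARP11 and PARP15 had means below 1 FPKM and were not tested. No ISRE-like match was found in the RefSeq windows of the 8 other family genes that had one.

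**Figure D4:**
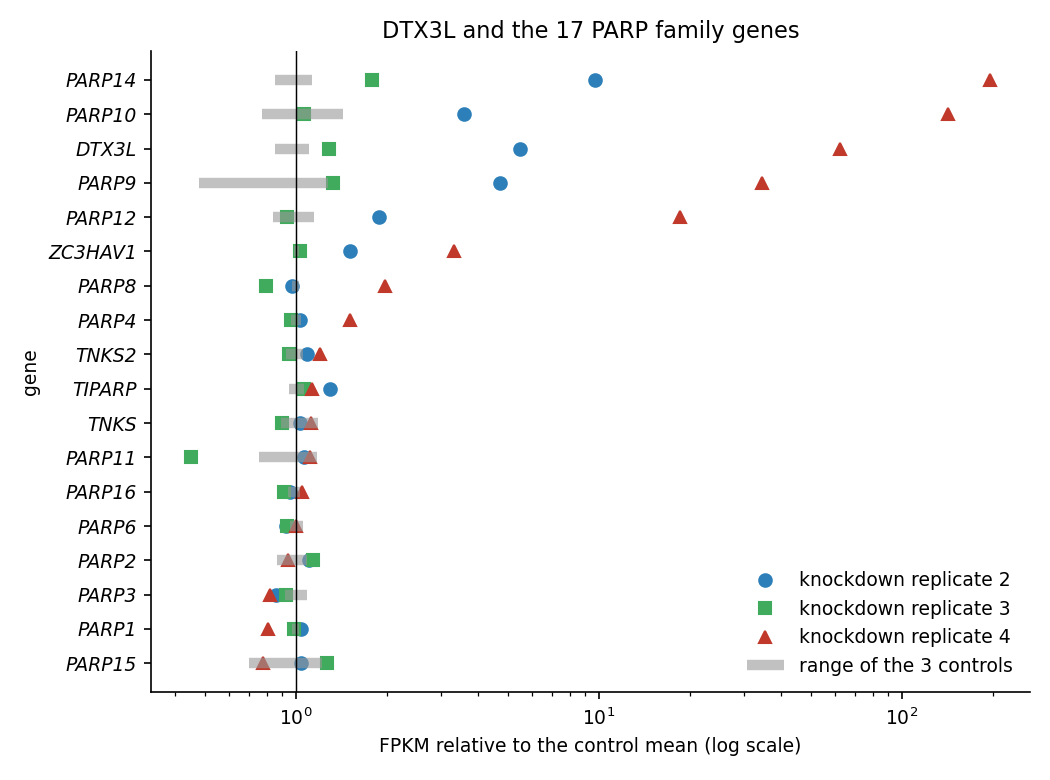
FPKM relative to the control mean on a log axis for DTX3L and 17 PARP family genes, with the range of the controls as a grey bar. The 6 antiviral genes lie at 3.33 to 195 times the control mean in knockdown replicate 4, with PARP8 next.

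PARP15 gave a contrast by position. PARP9, DTX3L, PARP15 and PARP14 follow each other on chromosome 3 (GRCh38, GENCODE release 29), with PARP9 at 122527924 to 122564577, DTX3L at 122564238 to 122575203 and PARP14 at 122680618 to 122730840. PARP15, a macrodomain PARP whose gene lies between DTX3L and PARP14, was at 0.605, 0.347 and 0.535 FPKM in control libraries, against 0.514, 0.628 and 0.386 FPKM in the knockdown libraries. Its level in knockdown replicate 4 was 0.778 times the control mean, between neighbours at 62.3 and 195 times. The window of PARP15 starts held no ISRE-like match and a GAS-like match beginning 51 bases before a start. The nearest expressed genes outside the cluster, the nuclear import factor KPNA1 and HSPBAP1, were at 1.07 and 0.705 times their control means in that library. PARP12 and ZC3HAV1 both lie on chromosome 7, at 140023744 to 140063721 and 139043520 to 139109719.

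**Figure D5:**
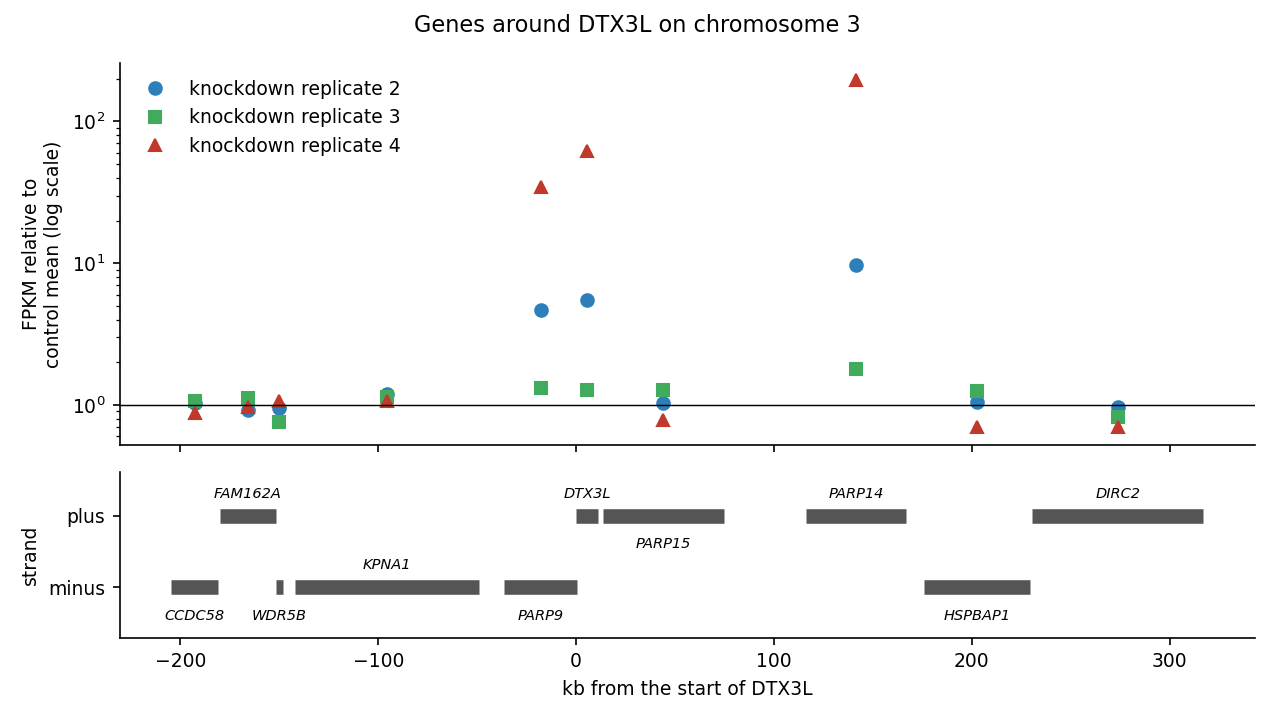
FPKM relative to the control mean on a log axis for 10 genes around the DTX3L start (within 300 kb, leaving out genes near 0), above a map of their positions and strands. PARP9, DTX3L and PARP14 stand at 34.5, 62.3 and 195 times in knockdown replicate 4, and PARP15 between them at 0.778 times.

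Genes that work with the antiviral members were examined from lists. Of 14 genes tied to ZAP and RNA decay, 0 passed in the group comparison, with a median log2 difference of 0.03. In knockdown replicate 4, 1 of the 14 was called higher, against 2.21% of all tested genes. It was TRIM25, the ubiquitin ligase that ZAP needs for its antiviral activity, at 12.5 to 14.8 FPKM in control libraries and 25.7, 13.2 and 143 FPKM in the knockdown libraries (adjusted p = 0.00024 in replicate 4). KHNYN, a nuclease partner of ZAP, was at 6.30 to 8.65 FPKM in control libraries and 12.0 FPKM in knockdown replicate 4 (adjusted p = 0.201). The exosome subunit EXOSC5 had the lowest difference of that list, at -0.18. ZC3HAV1L, the paralogue of ZAP without the PARP domain, differed by -0.15. All 14 genes had RefSeq windows, and only EXOSC3, another exosome subunit, held an ISRE-like match. EXOSC3 was at 0.919 times its control mean in knockdown replicate 4, while TRIM25, without such a match, was at 10.6 times.

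Of the 4 other Deltex genes 2 were tested, and 0 were called in the group comparison, where 0% of all tested genes were. In knockdown replicate 4 their median difference was 0.04, against -0.01 for all tested genes. DTX3 was at 38.6 to 42.1 FPKM in control libraries and 44.0 FPKM in knockdown replicate 4, and DTX2 had the lower difference of the 2 tested, -0.10. Of 10 ADP-ribose hydrolases and readers, 7 were tested and 0 were called in the group comparison. Their median difference in knockdown replicate 4 was 0.12. ADPRHL2, which removes ADP-ribose from serine, had the largest log2 difference (0.20) and reached 36.4 FPKM in knockdown replicate 4 against 22.6 to 25.8 in the controls (adjusted p = 0.0933). The nudix hydrolase NUDT16 had the smallest, -0.04.

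Among 7 tested genes of NAD supply, NAMPT, the rate-limiting enzyme of NAD salvage, was called higher in knockdown replicate 4, 1 of 7 against 2.21% of all tested genes. It stood at 12.4 to 13.7 FPKM in control libraries, against 13.6, 13.0 and 27.6 FPKM in the knockdown libraries (adjusted p = 0.0141 in replicate 4). NADSYN1 had the smallest difference of that list, -0.07. Of 11 partners of PARP1 and PARP2 in break repair, 10 were tested and 0 were called in the group comparison, where 0% of all tested genes were. FEN1 had the largest log2 difference there (0.05) and RNF146 the smallest (-0.15), and the median was -0.05. In knockdown replicate 4 the median of these 10 genes was -0.09, against -0.01 for all tested genes.

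Interferon signalling genes were measured beside these. Of 19 tested, 0 passed in the group comparison, 4 were called higher in knockdown replicate 2, 0 in replicate 3 and 12 in replicate 4. Of all tested genes 0.263%, 0.0164% and 2.21% were called higher in these libraries. Among those called in replicate 4, IRF1, IRF7, JAK2, USP18, SOCS1, IFNB1, IFNL1, IFNL2 and IFNL3 had control means below 1 FPKM. These means ran from 0 for IFNB1 to 0.753 for IRF1. Such genes were tested only through their knockdown values, so the filter favoured their calls. STAT2 was at 3.82, 4.42 and 4.90 FPKM in control libraries and 7.14, 4.11 and 81.7 FPKM in the knockdown libraries. IRF9 was at 7.37, 6.06 and 5.12 FPKM in control libraries and 35.3, 10.3 and 113 FPKM in the knockdown libraries. The receptor gene IFNAR1 stayed at 10.4 to 11.4 FPKM in all 6 libraries.

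USP18, which restrains interferon receptor signalling, had the largest difference of that list (log2 3.41) and IRF3 the smallest (-0.08). IFNB1, the interferon beta gene, was listed at 0 in the 3 controls and stood at 0.0971, 0.0771 and 23.0 FPKM in the knockdown libraries. IFNL1, a type III interferon gene, was listed at 0 in the controls and in knockdown replicate 3, and stood at 0.945 and 51.4 FPKM in replicates 2 and 4. IFNA1 and IFNG were listed at 0 in all 6 libraries and were not tested. For 18 tested interferon-induced reference genes the log2 difference ran from 1.35 for IFIH1 to 5.95 for ISG15. Of them 12 were called higher in knockdown replicate 2, 0 in replicate 3 and 18 in replicate 4. These counts stand beside 0.263%, 0.0164% and 2.21% of all tested genes. Only IFI6, OAS3 and EIF2AK2 had a control mean of at least 1 FPKM (10.3, 9.89 and 11.7). The others were tested only through their knockdown values, so the filter favoured their calls. Of the 20 listed, 17 had a RefSeq window and 12 an ISRE-like match.

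Markers of other cell types were summed beside the antiviral genes. The 13 leukocyte markers summed to 1.62 to 2.27 FPKM in control libraries and 1.68 to 3.30 FPKM in the knockdown libraries. Of these, 7 were listed at 0 in all libraries, and PTPRC, the pan-leukocyte marker, did not exceed 0.0651 FPKM. The highest single value was that of CD68, a macrophage marker. CD68 was at 0.802, 0.487 and 0.634 FPKM in control libraries and 0.68, 0.454 and 2.57 FPKM in knockdown replicates 2, 3 and 4. In replicate 4 it was thus 4.01 times its control mean, in the library where the antiviral genes were highest. The mean of CD68 was too low for it to be tested. CD14, the only leukocyte marker tested, went the other way in that library, at 0.574 times its control mean. It was at 1.44, 1.07 and 0.781 FPKM in control libraries and 0.955, 1.9 and 0.63 FPKM in the knockdown libraries. The 5 endothelial markers summed to at most 0.0985 FPKM and the 6 Schwann cell markers to 1.54 to 2.49 FPKM. The 8 fibroblast markers summed to 132 to 161 FPKM in control libraries and 150 to 164 FPKM in the knockdown libraries, mainly DCN and THY1, with COL1A2 listed at 0. The part of these cell types in the antiviral values was not tested. LUM, a matrix proteoglycan of the fibroblast list, was at 6.89 to 7.70 FPKM in control libraries and 13.8 FPKM in knockdown replicate 4. That was 1.92 times its control mean, and PDGFRB of the same list was at 1.67 times. DCN and THY1, which made up most of the fibroblast sum, were at 0.872 and 0.965 times their control means in that library. In bulk RNA, fewer cells with a transcript and less transcript per cell cannot be told apart.

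The genes whose pattern lay nearest to each antiviral gene were found over the 6 libraries. Nearness was the Euclidean distance between log2(FPKM + 1) values, each taken relative to the gene's own control mean, and knockdown replicate 4 weighs most in it. DTX3L lay at distances of 0.46 from OAS3 and 0.48 from HELZ2, closer than to any other of the 8 genes, of which PARP14 was the nearest at 0.85. PARP14 lay nearest to DDX58, which encodes the RNA sensor RIG-I (0.25), then to DDX60L (0.44) and IRF7 (0.47). PARP9 lay nearest to TRIM21 (0.72), NLRC5 (0.80) and IRF1 (0.82), and at 1.09 from DTX3L.

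PARP10 lay nearest to the chemokine gene CXCL11 (0.24), C5orf56 (0.33) and C19orf66 (0.34). PARP12 lay nearest to RNF213 (0.29), TDRD7 (0.37) and STAT2 (0.39). ZC3HAV1, with the smallest rise, lay nearest to CYP2J2 (0.25), CHSY1 (0.25) and the stress-induced transcription factor ATF3 (0.28). The member at the smallest distance from ZC3HAV1 was PARP2, at 1.79. In knockdown replicate 4 the differences of ZC3HAV1 and PARP2 were 1.64 and -0.08. The distance counts the size of each change, so this order does not show a like pattern. CHSY1, a chondroitin synthase, was at 18.1 to 19.5 FPKM in control libraries and 60.8 FPKM in knockdown replicate 4.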

How the data were processed

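The deposited table holds FPKM values made by the authors, with 26372 genes and 1 column for each of the 6 libraries. The submitters' processing notes name TopHat2, Cuffdiff and the build hg38. Their versions, the annotation, any filters and the handling of strand were not given in the sources used here. Polyadenylated RNA was sequenced in paired reads of 150 bases, per the labels' protocols. Absolute depth is unknown from FPKM. The 12164 genes whose mean reached 1 FPKM were compared as log2(FPKM + 1) with limma 3.58.1 in R 4.3.3 (eBayes with trend, two-sided, Benjamini-Hochberg over all tested genes, threshold 0.05), which understates changes of low genes. A second fit gave each knockdown library its own coefficient, with the spread of the 3 controls. Both fits were run on simulated data in which all 6 libraries had a spread taken from the controls. That simulation cannot test whether a lone library varies like the controls. The members and lists were chosen with earlier results of these data known. Named genes are the 8 members, MIAT, the other PARP family genes, STAT2 and IRF9, the list members with the largest and smallest difference, and the 3 nearest patterns per antiviral gene. Some genes that this rule names are not reported here. GRINA, PARP15's neighbours and the others were named after their values were seen. HPF1 was matched by an older symbol, and all other list genes by symbol. Alternatives were other pseudocounts and filters, quantile normalization, library weights, a replicate block and leaving out each library.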

Additional observations from a re-analysis of the deposited data

How the results depend on the processing

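Across 17 alternatives the antiviral genes gave 0 calls by limma in the group comparison, and their median log2 difference ran from 0.87 to 2.92, between leaving out knockdown replicate 4 and leaving out knockdown replicate 3. Over all genes 22 were called with library weights and 0 otherwise. These weights were 7.98 for control replicate 3 and 0.153 for knockdown replicate 4. With them that median was 1.02, and the adjusted p was 0.0804 for DTX3L, 0.0813 for PARP14 and 0.0888 for PARP9, and MIAT passed (0.00299). The cause was not tested.

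The fit with the replicate number as a block gave 0 calls over all genes and a median of 1.99 for the antiviral genes. Deviations of same-numbered libraries correlated at 0.09, 0.17 and 0.32, and control replicates 2 and 3 correlated better with another number. Control and knockdown replicate 4 correlated best with each other, at 0.32, and at -0.34 to -0.19 with other numbers. As 1 of the 3 same-number values was not over 0.1, the numbers were not taken to pair the libraries.

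In the fits of each library against the controls, the calls for the 6 antiviral genes in knockdown replicate 4 held under each alternative that tested them. With a control mean of at least 1 FPKM, chosen after seeing the data, only DTX3L, PARP12 and ZC3HAV1 of the antiviral genes were tested. Their differences in replicate 2 were 1.80, 0.66 and 0.54 on the log2(FPKM + 1) scale. With no filter the calls for antiviral genes in replicate 2 did not hold. Leaving out each control in turn gave 2 to 3 calls in replicate 2, 6 in replicate 4 and, for the repair paralogues in replicate 4, 0 to 1. Over all genes the calls were 32, 2 and 303 in replicates 2, 3 and 4. They were 77, 52 and 491 with no filter and 8 and 0 in replicates 2 and 3 with the control filter. In replicate 3 they were 4 and 12 with pseudocounts of 0.1 and 0.01, and 0 at a mean of at least 5 FPKM. Leaving out a control gave 30 to 73, 0 to 10 and 214 to 3752. Without control replicate 4 the other controls were closer together (r = 0.996).

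Signs turned for 4 differences near 0. Leaving out single libraries moved PARP1 between -0.16 and 0.02 and PARP2 between -0.01 and 0.17 in the group comparison. In knockdown replicate 3, leaving out a control moved PARP10 between -0.01 and 0.11 and PARP12 between -0.14 and 0.01, and PARP10 was -0.18 under quantile normalization. The absolute depth is unknown, and the control means of PARP9, PARP10 and PARP14 were below 1 FPKM.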
